A study of Mus musculus with 8 samples.

Results

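The leucine-rich repeat genes Lrrc34 and Lrrc31 lie close together in a stretch of mouse chromosome 3, between Mynn and Sec62, with Lrriq4 between them. Their order in RefSeq's GRCm38.p6 gene table is Mynn, Lrrc34, Lrriq4, Lrrc31, Samd7 and Sec62. Lrrc34 and Lrrc31 were chosen by their array values, which were much lower in cohesin-depleted embryonic stem cells (the Smc1 group) than in control cells (the GFP group), and Mynn and Sec62 because they flank them. These 4 genes, read by 13 probe sets, are set among 18140 genes read by 34758 probe sets with 1 gene symbol, and all 4 were among the 12400 genes tested. Because the Smc1 and GFP arrays chose the genes, their values there are given as a description with no test.

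Expression was measured in the mouse embryonic stem cell line V6.5 on 8 one-colour Affymetrix arrays, in 4 groups of 2. The Smc1 group (gene Smc1a, a cohesin subunit) held 2 biological replicates of 1 hairpin. The CapH2 group (gene Ncaph2, a subunit of condensin II) held hairpins 3 and 4, and the Smc2 group (a subunit of both condensins) held hairpins 1 and 2, with 1 array per hairpin. The GFP group, the control, held 2 biological replicates of 1 hairpin against a protein that mouse cells lack. All cells, controls included, received a viral short hairpin RNA with polybrene at 8 µg/ml, followed by 4 days of selection with puromycin at 4 µg/ml. Extraction of RNA followed on day 5, and 100 ng of it was labelled for each array. As Smc1 and GFP had 1 hairpin each, what such a hairpin does to other genes cannot be told apart from the loss of its target. These are bulk samples, so fewer cells of a type and less RNA per cell cannot be told apart.

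Cohesin is a ring-shaped complex that holds sister chromatids together and extrudes loops of chromatin, which often end where CTCF is bound, so that neighbouring genes can share a loop. Condensins compact chromosomes and also act on interphase chromatin. Lrrc34 encodes a nucleolar leucine-rich repeat protein of mouse pluripotent stem cells and testis that binds nucleophosmin and nucleolin. Lrrc31 encodes another leucine-rich repeat protein, studied in human epithelial cells, and Lrriq4 one with an IQ motif, a calmodulin-binding element. Mynn (myoneurin) is a zinc finger protein with a BTB domain. Sec62 sits in the endoplasmic reticulum membrane, where it helps proteins enter through the Sec61 channel and acts as a receptor for autophagy of that membrane.

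The promoter windows of Lrrc34 and Lrrc31 are printed because, among the tested genes from Mynn to Sec62, these had the lowest Smc1 values relative to GFP. Each runs from 250 bases before to 50 bases after the RefSeq start, on GRCm38.p6, and capitals mark motif matches on either strand.
Lrrc34, chr3:30647769-30648068, minus strand: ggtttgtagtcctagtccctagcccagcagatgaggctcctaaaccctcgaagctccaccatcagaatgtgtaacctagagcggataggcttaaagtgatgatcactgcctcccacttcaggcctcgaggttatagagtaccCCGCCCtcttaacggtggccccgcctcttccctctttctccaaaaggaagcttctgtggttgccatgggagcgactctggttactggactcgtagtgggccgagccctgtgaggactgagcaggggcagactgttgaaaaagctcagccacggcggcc
Lrrc31, chr3:30699794-30700093, minus strand: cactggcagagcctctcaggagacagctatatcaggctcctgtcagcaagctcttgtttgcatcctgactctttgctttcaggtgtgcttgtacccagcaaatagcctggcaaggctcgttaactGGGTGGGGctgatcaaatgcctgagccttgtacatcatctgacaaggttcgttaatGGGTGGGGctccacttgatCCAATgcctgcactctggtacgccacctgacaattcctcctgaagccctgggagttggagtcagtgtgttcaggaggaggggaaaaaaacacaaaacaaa
The Lrrc34 window held 1 match, to the GC box GGGCGG on the opposite strand. The Lrrc31 window held 2 matches to the CACCC box CCCCACCC on the opposite strand and 1 to the CCAAT box. These letters are common: of 32851 RefSeq promoter windows of the same length, 35.7% held the GC box, 9.99% the CACCC box and 37.4% the CCAAT box. The other motifs searched on both strands were the POU octamer ATGCAAAT (1.74% of windows), the Esrrb motif TCAAGGTCA (0.423%), TATAAA (13.6%) and a CTCF core motif (2.43%), and neither window held their letters. The Mynn and Sec62 windows held no match to any of the 7 motifs. Lrriq4 has a pair of listed starts. One of them lies 151 bases from the Lrrc34 start on the opposite strand, pointing away from it, so the windows share 250 bases, and the other lies within Lrrc34.

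Each hairpin lowered its own target. Smc1a was at 535 and 454 intensity units on the Smc1 arrays, against 4165 and 3662 on the GFP arrays (log2 change -2.95, limma adjusted p = 8.04e-05). Ncaph2 was at 398 and 429.5 with CapH2 hairpins 3 and 4, against 3469 and 3168 in GFP (-2.96, limma adjusted p = 0.00119). Smc2 was at 2234 and 2859 with Smc2 hairpins 1 and 2, against 8756 and 7146 in GFP (-1.64, limma adjusted p = 0.0157). Array medians lay between 62.5 and 74.5 units. All 8 embryonic stem cell markers (such as Pou5f1 and Nanog) lay above the median on all 8 arrays, with sums of 80470 and 95572 in Smc1, 104847 and 109845 in CapH2, 113808 and 119439 in Smc2, and 125844 and 120763 in GFP, and 5 of them were called lower in Smc1. Of 10 feeder fibroblast markers 9 were measured, and 1 of them, Col1a2, lay above the median on all arrays. Their sums were 1057 and 786 in Smc1, 1313 and 640.1 in CapH2, 705 and 899.9 in Smc2, and 496 and 586 in GFP, 1 was called higher in Smc1, and none was at 0. Beside these counts, limma called 4.69% of all tested genes lower and 9.38% higher in Smc1 against GFP. The part of these markers in the results on the 4 genes was not tested.

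Lrrc34 was lowest in Smc1 and highest in GFP, with the condensin groups between them. Its probe set read 505 and 783 units on the Smc1 arrays, 1639 and 4581 with CapH2 hairpins 3 and 4, 1829.5 and 4267 with Smc2 hairpins 1 and 2, and 5729.9 and 5123 on the GFP arrays. Both Smc1 arrays lay below the other 6, and all arrays of the condensin groups lay below both GFP arrays while overlapping each other. Means were 644 ± 197 in Smc1, 3109.9 ± 2081 in CapH2, 3048 ± 1724 in Smc2 and 5426 ± 429 in GFP (SD, n = 2 each), which puts the knockdowns at 11.9, 57.3 and 56.2% of GFP. On the log2(value + 16) scale, used for all changes, the Smc1 difference from GFP was -3.07 (SE 0.475), and -2.11 from the averaged condensin groups. The CapH2 and Smc2 comparisons use the same GFP arrays that chose Lrrc34 and Lrrc31, so their tests for these genes are not independent of the choice. Neither change of Lrrc34 passed the test: -0.98 in CapH2 (limma adjusted p = 0.420) and -0.95 in Smc2 (limma adjusted p = 0.426), both against GFP. The CapH2 change was -0.24 without hairpin 3 and -1.72 without hairpin 4, and the Smc2 change -0.34 without hairpin 1 and -1.56 without hairpin 2. The 3 comparisons with GFP share its 2 arrays, so they are given side by side only.

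Lrrc31 read 18.5 and 61.6 units in Smc1, 154 and 512 in CapH2, 131 and 525 in Smc2, and 523 and 533 in GFP. The Smc1 arrays lay below their array's median and below all others, and only 1 array of each condensin group was low. Means were 40.03 ± 30.5 in Smc1, 333 ± 253 in CapH2, 328 ± 278 in Smc2 and 528 ± 7.06 in GFP (SD, n = 2 each). Both CapH2 arrays lay below the GFP arrays, hairpin 4 only slightly, and the Smc2 arrays overlapped them. The Smc1 difference from GFP was -3.39 (SE 0.654). Neither condensin change passed the test, at -0.86 in CapH2 (limma adjusted p = 0.592) and -0.95 in Smc2 (limma adjusted p = 0.558). The first was -0.04 without CapH2 hairpin 3 and -1.68 without hairpin 4, and the second -0.01 without Smc2 hairpin 1 and -1.88 without hairpin 2.

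Lrriq4, which lies between Lrrc34 and Lrrc31 and was not among the chosen 4, was lower in Smc1 than in GFP. It read 51.6 and 86.1 units in Smc1, 98.5 and 303 in CapH2, 126 and 414 in Smc2, and 527 and 315 in GFP. The Smc1 arrays lay below all others, CapH2 lay below GFP and Smc2 overlapped it. Lrriq4 fell by 2.35 on the log2 scale in Smc1 against GFP (SE 0.576, limma adjusted p = 0.0256). That test uses the Smc1 and GFP arrays that chose Lrrc34, the adjacent gene, whose promoter window overlaps one of Lrriq4. It is therefore not independent of that choice. The call was lost with no filter on low values (limma adjusted p = 0.0510), with no trend (0.0567), and when any 1 of the 4 Smc1 and GFP arrays was left out: -2.05 and -2.65 with Smc1 replicate 1 or 2 out, and -1.995 and -2.71 with GFP replicate 1 or 2 out (limma adjusted p between 0.0575 and 0.194). The CapH2 change was -1.15 (limma adjusted p = 0.434) and the Smc2 change -0.78 (limma adjusted p = 0.582). Against the averaged condensin groups the Smc1 difference was -1.39 (limma adjusted p = 0.126), and it passed the test without CapH2 hairpin 3 (-1.76, limma adjusted p = 0.0486) or without Smc2 hairpin 1 (-1.79, limma adjusted p = 0.0342).

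**Figure D1:**
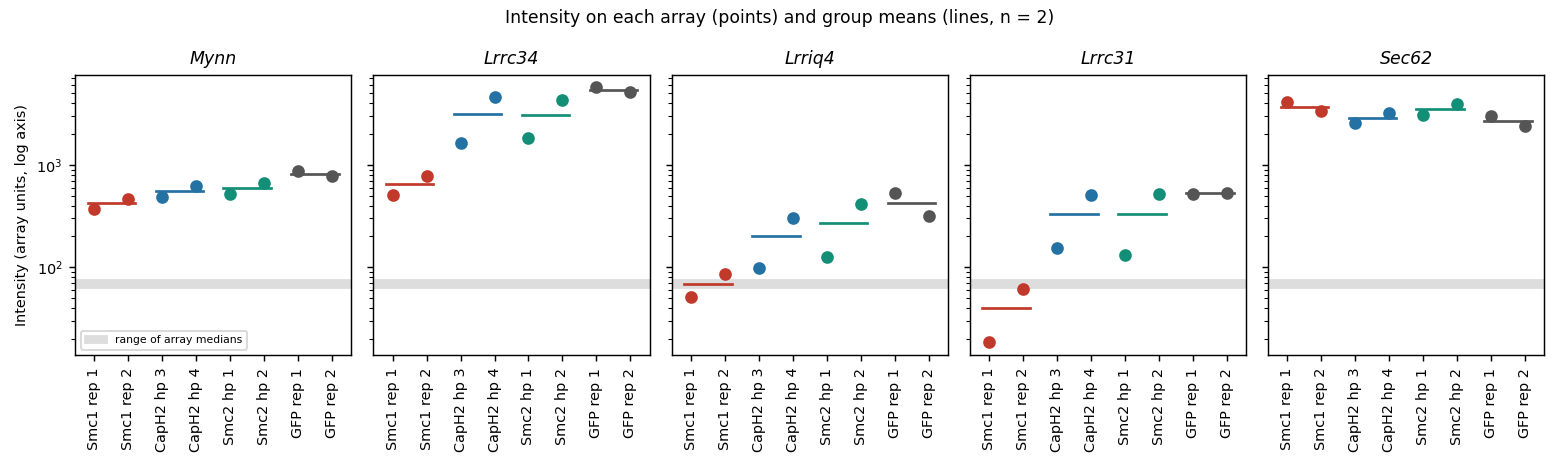
Intensity on each array, in array units on a log axis, of Mynn, Lrrc34, Lrriq4, Lrrc31 and Sec62, with points for arrays, lines for group means (n = 2 each) and a grey band for the range of array medians. Lrrc34, Lrriq4 and Lrrc31 are lowest on the Smc1 arrays, and CapH2 hairpin 3 and Smc2 hairpin 1 lie below hairpins 4 and 2.

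Within each condensin group the hairpins gave different levels of Lrrc34, Lrriq4 and Lrrc31. CapH2 hairpin 4 over hairpin 3 gave 2.80 for Lrrc34, 3.07 for Lrriq4 and 3.33 for Lrrc31, as ratios of the deposited values. Smc2 hairpin 2 over hairpin 1 gave 2.33, 3.28 and 4.00 for these genes in that order. With 16 added to each value, all 3 stayed past 2-fold in both pairs, a mark reached by 1.96% of all tested genes for CapH2, 4.83% for Smc2 and 0.839% for both. Each ratio compares 1 array with 1 array and has no test. The targets themselves read 1.08 times as high for Ncaph2 with CapH2 hairpin 4 as with hairpin 3, and 1.28 times for Smc2 with hairpin 2 over hairpin 1, and their part in the split was not tested. With 16 added, Gpr160 gave 1.40 and 2.02, Phc3 1.54 and 2.08, Mynn 1.27 and 1.26, and Sec62 1.24 and 1.29 for CapH2 and Smc2 in that order. For Mynn and Sec62 these are the highest probe sets, and a dimmer probe set of each, given below, split the hairpins more.

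The ratio of 3' to 5' control probe sets of Actb, a measure of RNA integrity and labelling, moved with these genes. It was 1.70 and 1.84 in Smc1, 1.67 and 1.98 in CapH2, 1.82 and 2.18 in Smc2, and 2.18 and 2.04 in GFP. The arrays with low Lrrc34 were those with ratios of 1.84 or less. With its log2 as a covariate, an alternative chosen after seeing the data, the Smc1 difference from GFP was -1.78 for Lrrc34, -1.67 for Lrrc31 and -0.81 for Lrriq4, and the Lrriq4 call was lost (limma adjusted p = 0.146). Mynn was then at -0.58 and Sec62 at 0.76 in Smc1, beside -0.95 and 0.46 without the covariate. The CapH2 differences then became 0.10, 0.58 and 0.14 for Lrrc34, Lrrc31 and Lrriq4, while the Smc2 differences of these genes kept their direction. The part of this ratio in the results was not tested.

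**Figure D2:**
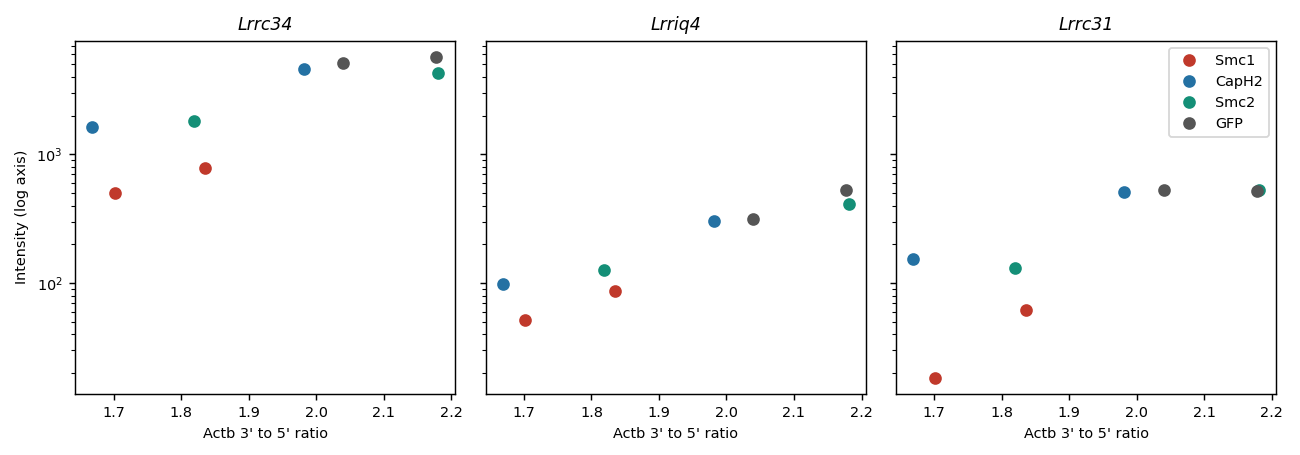
Intensity of Lrrc34, Lrriq4 and Lrrc31 (log axis) against the Actb 3' to 5' ratio of each array (n = 8), with groups marked in the order Smc1, CapH2, Smc2 and GFP. The 4 arrays with ratios of 1.84 or less hold the lowest Lrrc34 values.

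Mynn read lower in all knockdowns than in GFP on its highest probe set, which stands for the gene. It read 371 and 468 units in Smc1, 486 and 621 in CapH2, 522 and 662 in Smc2, and 869 and 774 in GFP. Every knockdown array lay below both GFP arrays, and the Smc1 arrays below all others. Means were 419 ± 68.4 in Smc1, 554 ± 95.4 in CapH2, 592 ± 98.9 in Smc2 and 822 ± 67.03 in GFP (SD, n = 2 each). The difference from GFP was -0.95 in Smc1 (SE 0.224), and -0.56 in CapH2 (limma adjusted p = 0.365) and -0.47 in Smc2 (limma adjusted p = 0.414), neither past the test. The other 5 probe sets gave -1.39 to -0.25 in Smc1, -1.08 to -0.04 in CapH2 and -0.78 to 0.16 in Smc2. The probe set with the largest size of change read 86.6 and 104 in Smc1, 80.5 and 181 in CapH2, 118 and 199 in Smc2, and 377 and 199 in GFP. On it CapH2 hairpin 4 was 2.25 times hairpin 3, and Smc2 hairpin 2 was 1.69 times hairpin 1. The remaining probe sets, apart from the highest, gave 0.85 to 1.17 for these ratios.

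Sec62 went the other way on its highest probe set, and its probe sets disagreed. That probe set read 4069 and 3354 units in Smc1, 2586 and 3208 in CapH2, 3050.2 and 3953 in Smc2, and 3025 and 2375 in GFP. The Smc1 and Smc2 arrays lay above both GFP arrays, and CapH2 overlapped them. Means were 3711 ± 506 in Smc1, 2897 ± 439 in CapH2, 3501.5 ± 638 in Smc2 and 2699.9 ± 460.1 in GFP (SD, n = 2 each). The difference from GFP was 0.46 in Smc1 (SE 0.203), 0.10 in CapH2 (limma adjusted p = 0.858) and 0.37 in Smc2 (limma adjusted p = 0.455). A second probe set gave 0.49, 0.30 and 0.44 in Smc1, CapH2 and Smc2. The other 3 ran the opposite way, at -0.68, -0.50 and -0.57 in Smc1, but the last of these lay below the median on all 8 arrays. With the mean of all 5 probe sets Sec62 was at -0.16 in Smc1, -0.27 in CapH2 and -0.24 in Smc2.

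One of those 3 Sec62 probe sets split the hairpins as the leucine-rich repeat genes did. It read 520 and 607 units in Smc1, 323 and 732 in CapH2, 434 and 958 in Smc2, and 1028 and 804 in GFP. CapH2 hairpin 4 was 2.27 times hairpin 3 there, and Smc2 hairpin 2 was 2.21 times hairpin 1. The part of the transcript that each probe set reads was not analysed here.

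**Figure D3:**
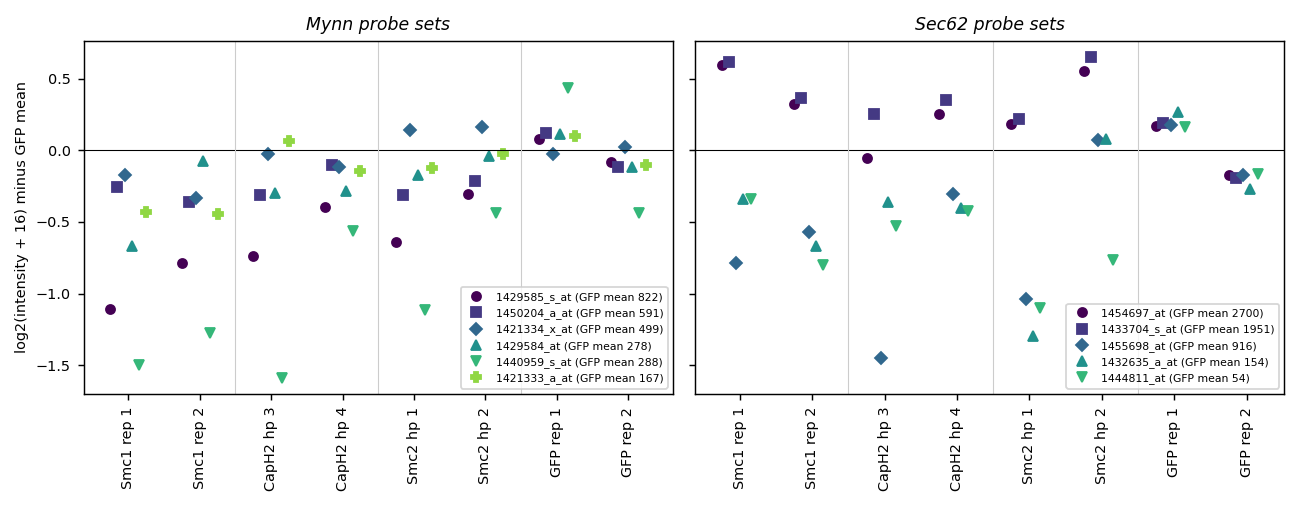
Each array's log2(intensity + 16) minus the mean of the GFP arrays, for the 6 probe sets of Mynn and the 5 of Sec62, with the GFP mean intensity in the legend. On the Smc1 arrays all Mynn probe sets lie below 0, while 2 Sec62 probe sets lie above 0 and 3 below.

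To see how far along the chromosome such differences ran, the 20 protein-coding genes on either side of the stretch from Mynn to Sec62 were taken by position. With Lrriq4 and Samd7 this made 42 genes, of which 40 were measured on 96 probe sets and 24 were tested. Samd7, a gene with a SAM domain that lies between Lrrc31 and Sec62, was not tested because both its probe sets lay below the median on all 8 arrays. In Smc1 against GFP, limma called 3 of the 24 lower (Lrriq4, Eif5a2 and Mrpl47) and none higher, and 8 (33.3%) had an unadjusted p below 0.05. Over all tested genes 4.69% were called lower, 9.38% higher, and 31.2% had an unadjusted p below 0.05, close to the window's share. The median change was -0.20 in the window and 0.03 over all tested genes. On the rest of chromosome 3, 62 of 542 tested genes were called higher and 32 lower, with a median of 0.11.

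Eif5a2, a translation factor gene on the Mynn side, read 438 and 607 units in Smc1, 573 and 795 in CapH2, 656 and 876 in Smc2, and 1315 and 1041 in GFP. All knockdown arrays lay below both GFP arrays. It fell by 1.16 in Smc1 against GFP (SE 0.255, limma adjusted p = 0.0174), while its other probe set gave 0.12. The call was lost without Smc1 replicate 1 (-0.93), GFP replicate 1 (-0.99) or GFP replicate 2 (-1.32), with limma adjusted p between 0.0599 and 0.154, and with the mean of both probe sets (-0.52, limma adjusted p = 0.0939).

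Mrpl47, a gene of the mitochondrial ribosome on the Sec62 side, read 3237 and 3052 units in Smc1, 4346 and 4308 in CapH2, 4765 and 4266 in Smc2, and 4707 and 4217 in GFP. Only the Smc1 arrays lay below GFP. It fell by 0.50 against GFP (SE 0.144, limma adjusted p = 0.0452) and by 0.49 against the averaged condensin groups (limma adjusted p = 0.0426). With the mean of its 3 probe sets these were -0.08 and -0.08 (limma adjusted p = 0.871 and 0.883). The GFP call was also lost with no filter (limma adjusted p = 0.0557), median centring (0.0952), no trend (0.100), and without either CapH2 array, either Smc1 array or either GFP array (limma adjusted p between 0.0638 and 0.234). The other call was lost without any 1 array except Smc2 hairpin 2 (limma adjusted p between 0.0621 and 0.244).

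The genes next to Sec62 on its far side did not pass the test. Gpr160, which encodes an orphan receptor, read 318 and 539 units in Smc1, 383 and 543 in CapH2, 312 and 646 in Smc2, and 602 and 568 in GFP, a change of -0.48 in Smc1 (limma adjusted p = 0.388). Its knockdown groups each held 1 low array, and Smc2 overlapped GFP. Phc3, a polycomb repressive complex gene, was at 0.02 in Smc1 (limma adjusted p = 0.979) and Prkci, an atypical protein kinase C gene, at -0.31 (limma adjusted p = 0.265). Skil, which encodes the corepressor SnoN, was at 0.43 (limma adjusted p = 0.0775).

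**Figure D4:**
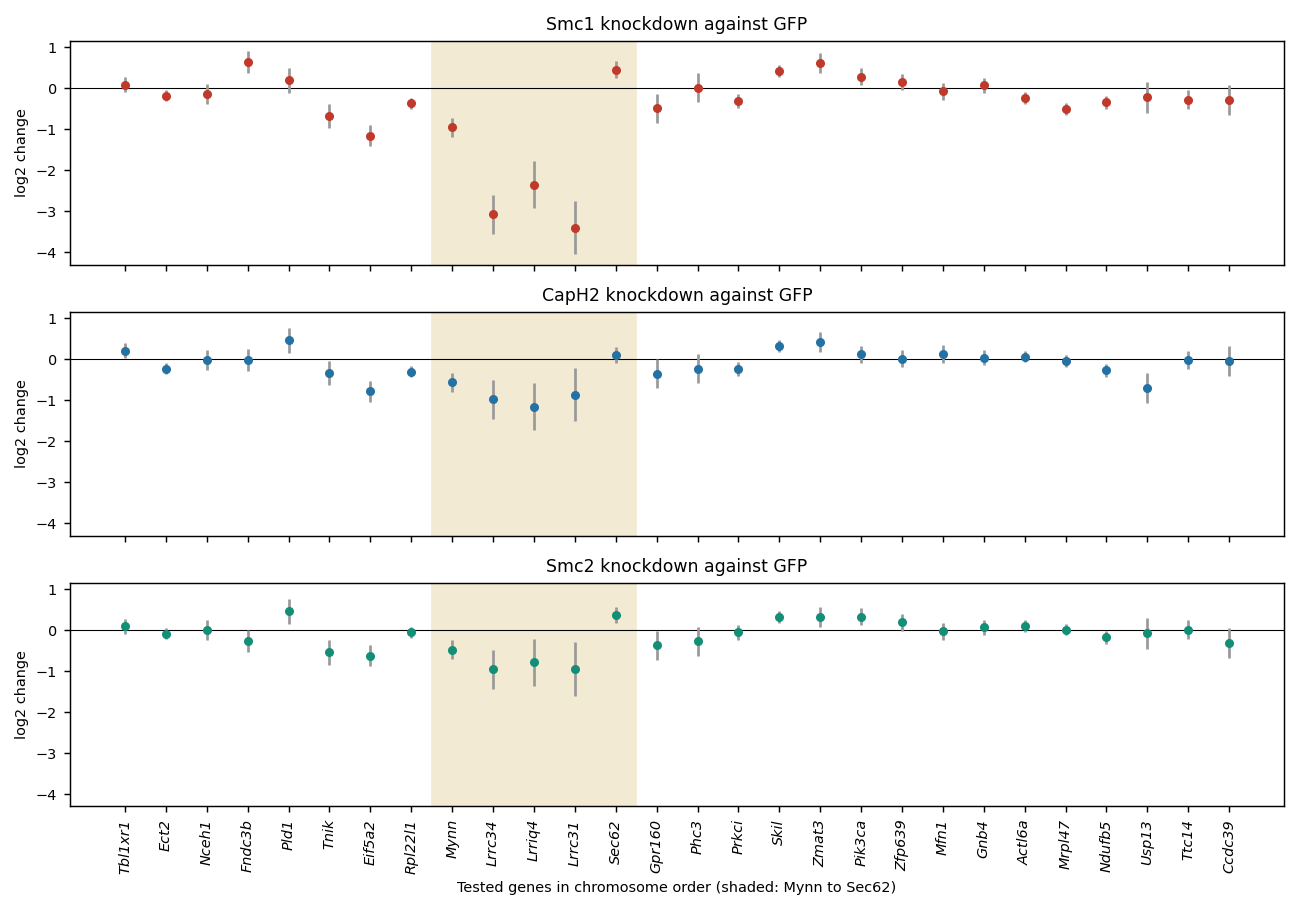
Log2 change against GFP, on the log2(value + 16) scale, of the tested genes of the window in chromosome order (rank, not distance), in a panel each for Smc1, CapH2 and Smc2, with bars for the limma SE and shading from Mynn to Sec62. Lrrc34, Lrriq4 and Lrrc31 stand lowest in Smc1, at -3.07, -2.35 and -3.39, and Sec62 beside them lies at 0.46.

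In the condensin knockdowns limma called none of the 24 window genes, where 0.0161% of all tested genes were called in each. At an unadjusted p below 0.05 there were 3 in CapH2 and 2 in Smc2 (12.5 and 8.33%), where 12.6% of all tested genes were in each, and the median changes were -0.03 and -0.04. Against the averaged condensin groups, 1 window gene was called lower in Smc1, Mrpl47, and none higher, where 2.24% of all tested genes were called lower. Both arrays lay below both GFP arrays for 11 of the 24 in Smc1, 9 in CapH2 and 3 in Smc2, where the shares over all tested genes were 28.4, 21.9 and 21.7%. Both lay above for 6, 3 and 5, where the shares were 34.6, 25.3 and 23.2%.

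The relatives of these genes elsewhere in the genome showed changes in both directions in Smc1 against GFP. Of 51 other Lrrc genes 28 were tested, and limma called 2 higher, Lrrc58 (0.75, adjusted p = 0.0410) and Lrrc8c (1.14, adjusted p = 0.0143), and 1 lower, Lrrc2 (-2.29, adjusted p = 0.00792), with a median of 0.30. Lrrc8c encodes a subunit of a volume-regulated anion channel. Of 25 genes that work with Sec62 in moving proteins into the endoplasmic reticulum 23 were tested. Sec63, the partner of Sec62, rose (1.26, limma adjusted p = 0.0157), and Ssr2, of the translocon-associated complex, Sec61a2, of the channel, and Sec11c, of the signal peptidase, fell by 0.75, 0.91 and 0.73 (limma adjusted p = 0.0120, 0.0378 and 0.0487), with a list median of -0.03. Of 40 genes taken as BTB zinc finger relatives of Mynn by their Zbtb symbol, 37 were tested. They include Zbtb11os1, which is named as an opposite-strand transcript of Zbtb11. Among the 37, limma called Zbtb42 higher (1.18, adjusted p = 0.0210) and Zbtb43 and Zbtb44 lower (-0.85 and -0.74, adjusted p = 0.0230 and 0.0377), with a median of -0.08. These shares stand beside 14.1% of all tested genes called and a median of 0.03.

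Npm1 and Ncl, which encode the nucleolar partners of Lrrc34, were at -0.23 and -0.20 in Smc1 (limma adjusted p = 0.180 and 0.671). In CapH2 and Smc2 limma called no gene of these lists. At an unadjusted p below 0.05 there were 1 and 2 Lrrc genes, 3 and 2 translocon genes, and 3 and 3 BTB genes, for CapH2 and Smc2 in that order, shares of 3.57 to 13.0% beside 12.6% of all tested genes in each. Calls of the 3 lists in Smc1 against GFP became fewer without Smc1 replicate 1 or without either GFP array, as did calls over all tested genes. Each of these fits leaves 1 array in a group, so the fall is not particular to the lists.

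The genes whose values followed Lrrc34 most closely over the 8 arrays lay on other chromosomes, apart from Lrrc31. Lrrc34 and Lrrc31 were both chosen for low values on the Smc1 arrays against the GFP arrays, so the r between them is built in by that choice in part and supports nothing. By Pearson r of log2 values among 12399 other tested genes, the 5 highest were Gm3336 (0.998, chromosome 8), Rnf17 (0.995, chromosome 14), Esco2 (0.994, chromosome 14), Gabpa (0.993, chromosome 16) and Lrrc31 (0.990). Rnf17 encodes a Tudor domain protein of male germ cells, Esco2 an acetyltransferase that acts on cohesin, and Gabpa an ETS transcription factor. For Lrrc31 the 5 highest were Pitpnc1 (0.995, chromosome 11), Lrrc34 (0.990), Ccdc63 (0.990, chromosome 5), Gabpa (0.987) and Rnf17 (0.986). An r of at least 0.9 was reached by 385 genes with Lrrc34, 3.11% of those compared, and by 368 with Lrrc31, 2.97%. All points share the same 8 arrays, and the groups that differ most set much of each r.

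Rnf17 read 1382 and 1723 units in Smc1, 2192 and 3176 in CapH2, 2287 and 3083 in Smc2, and 3643 and 3132 in GFP. Esco2 read 1550.3 and 2059.8 in Smc1, 2629 and 4108 in CapH2, 2808 and 3867 in Smc2, and 4794 and 4761 in GFP. Both were lowest in Smc1 and lower with CapH2 hairpin 3 and Smc2 hairpin 1 than with the other hairpin of the pair, as Lrrc34 was. As Rnf17 and Esco2 were picked for a high r with Lrrc34 on these same arrays, that likeness follows from the choice. Among the neighbours, Lrriq4 had r = 0.960 with Lrrc34 (rank 62), Mynn 0.945 (rank 124), Gpr160 0.680, Phc3 0.259 and Sec62 -0.41. Without the 2 Smc1 arrays, those farthest from the median of Lrrc34, the values over 6 arrays were 0.975 for Lrrc31, 0.960 for Lrriq4, 0.922 for Mynn, 0.914 for Gpr160, 0.882 for Phc3 and 0.18 for Sec62. The share of all tested genes with such an r over 6 arrays was not computed, so these values are a description only. The 6 arrays still include the GFP arrays that chose Lrrc34 and Lrrc31.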

How the data were processed

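The deposited values are intensity, 1 linear summary by the authors per probe set and array, with 44903 probe sets. The method of summary is not given in the sources. Trimming 2% gave array means of 488.9 to 490.0, so no scaling was added. Probe sets with exactly 1 symbol were used (34771, with 926 having several and 9206 none), without the array controls. Each gene was represented by its brightest probe set on average. Testing required a value over the array median on 2 or more of 8 arrays, which also lets in genes that are high in some groups only.

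Values were analysed as log2(value + 16), which understates changes of low genes, in R 4.3.3 with limma 3.58.1 (group means of all 8 arrays, eBayes with trend, residual degrees of freedom 4, prior 5.95). Adjusted p is Benjamini-Hochberg over all 12400 genes of a comparison, with calls below 0.05. The spread pools differences between hairpins (CapH2, Smc2) with those between replicates (Smc1, GFP), and 2 arrays per group limit the precision. The fit was tested on simulated data with independent noise and no effect of hairpin or RNA integrity, so that test does not bear on either.

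The rule for named genes took the 4 genes, window genes called or lying between them, up to 4 called members of each list, and the 5 genes with the highest r with Lrrc34 and with Lrrc31. Window genes just after Sec62, the hairpin ratios and the motifs were chosen after their values or sequences were seen. The members and lists (Lrrc, translocon, BTB zinc finger, nucleolar partners, targets, stem cell and feeder markers) were chosen with earlier results of these data known. Gene order and promoter sequences are RefSeq's on GRCm38.p6. Alternatives were other pseudocounts (1 and 64), no filter, quantile normalization, median centring, the mean of all probe sets, no trend, a replicate block, each array left out, and the Actb ratio as a covariate.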

Additional observations from a re-analysis of the deposited data

How the results depend on the processing

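In Smc1 against GFP the 3 window calls became 1 with no filter and 1 with no trend, 0 with the Actb ratio (7 at an unadjusted p below 0.05), and 0 to 4 when 1 array was left out; calls over all genes, 1745, became 574 with the Actb ratio and 140 to 2196 with 1 array out, the lowest without Smc1 replicate 1. A lone array left in a group is assumed to vary like the others. Window calls in CapH2 and in Smc2 against GFP were 0 under every alternative run; calls over all genes, 2 in each, became 1 with the mean of probe sets in both, 1 (CapH2) and 0 (Smc2, 1494 unadjusted) with no trend, 58 in Smc2 with the Actb ratio, and 0 to 7 (CapH2) and 0 to 195 (Smc2) with 1 array out. In Smc1 against the averaged condensin groups the 1 window call became 0 with no filter, median centring, the mean of probe sets or no trend, 4 with the Actb ratio and 0 to 2 with 1 array out; over all genes 973 became 602 with no filter, 1662 with the Actb ratio and 10 to 1166 with 1 array out. With a replicate block for Smc1 and GFP there were 2 window calls and 1373 over all genes. Lrriq4 and Mrpl47 then had limma adjusted p of 0.0545 and 0.0549. Deviations of same-numbered arrays had r = 0.0661 over 12400 genes, which cannot settle whether the numbers stand for a shared preparation. Directions turned for Sec62 with the mean of probe sets (-0.16 in Smc1, -0.27 in CapH2, -0.24 in Smc2) and in CapH2 with 1 array out (-0.070 to 0.28, the lowest without GFP replicate 2, and -0.051 without CapH2 hairpin 4); in CapH2 with the Actb ratio for Lrrc34 (0.10), Lrriq4 (0.14) and Lrrc31 (0.58); for Lrriq4 in Smc2 with 1 Smc2 array out (-1.58 to 0.019); and for Mrpl47 in CapH2 with median centring (0.027) or without GFP replicate 1 (0.037, against -0.12 without GFP replicate 2), and in Smc2 with quantile normalization (-0.013), the Actb ratio (-0.0038), or without Smc2 hairpin 1 or GFP replicate 2 (-0.062 each; up to 0.097 with another array out). Median centring put the median of all genes at 0.10 in Smc2 against GFP. Beyond what fewer arrays or genes bring, the cause was not tested.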

Other observations

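Mecom, which encodes the zinc finger transcription factor Evi1 and lies before Actrt3 on the Mynn side, was not tested because its highest probe set was dim. Another of its 3 probe sets, chosen after its values were seen, read 135 and 60.6 units in Smc1, 8.11 and 7.51 in CapH2, 19.3 and 3.38 in Smc2, and 3.62 and 2.5 in GFP. Only 1 of these 8 arrays, a Smc1 array, lay above its array's median. The highest probe set ran the other way, at 35.7 and 43.8 in Smc1 and 48.1 and 58.5 in GFP. On the remaining probe set Smc1 (2.17 and 20.6) overlapped GFP (2.77 and 0.819).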
